A study of Mus musculus with 2 samples.

Results

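Mature basal vomeronasal sensory neurons (VSNs) are the neurons of the vomeronasal organ (VNO) that carry receptors of the V2R family. They were picked here from single-cell RNA-seq of whole VNO by a rule on their own molecules. A barcode had to hold 200 to 9000 genes and at most 10% of its unique molecular identifiers (UMIs, each a captured mRNA molecule) from mitochondrial genes. It needed at least 3 UMIs of *Omp*, the marker of mature olfactory and vomeronasal neurons, and more of these than of *Gap43*, a growth protein of immature neurons. It also needed at least 3 UMIs of *Gnao1*, the G protein alpha subunit of basal VSNs, and more than of *Gnai2*, that of apical VSNs. The UMIs of all *Vmn2r* genes had to sum to at least 10 and to more than those of all *Vmn1r* genes, and *Cyp2a5* and *Cyp2g1* of sustentacular cells had to sum to under 5. The rule found 107 cells, 52 in library 1 and 55 in library 2, of 18704 barcodes within the limits on genes and mitochondrial share and 24084 in all.

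All cells came from wild-type C57BL/6J males at P60 under 1 condition, so every comparison is between groups of cells. The study describes 5 mice and 2 droplet libraries of 3 prime ends, made from cells that had been frozen and thawed. The sources do not say how the mice were divided between the libraries, and the p-values below measure only the spread between the libraries, which may be technical. Library 1 held 12814 barcodes and library 2 11270, and 33 barcode sequences occurred in both, none of them a member. The 107 cells had a median of 17458 UMIs (lowest 2871, highest 50635) and 4293 genes, with medians of 17799.5 UMIs in library 1 and 17296 in library 2. Other groups were drawn for comparison: 893 mature apical VSNs by the mirror rule, 83 immature basal VSNs (*Gap43* above *Omp*, *Tfap2e* above *Meis2*) and 343 immature apical VSNs (*Meis2* above *Tfap2e*). The immature groups needed at least 3 UMIs of *Gap43* and at least 1 of *Tfap2e* or *Meis2*. Their rule set no limit on G proteins or receptors, unlike the mature rules, and kept the other limits.

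V2Rs are large G protein-coupled receptors that bind peptide and protein cues such as pheromones in urine and tears, and their neurons send axons to the posterior accessory olfactory bulb. A basal VSN is known to use 1 V2R of the large families A, B and D together with broadly used members of the small family C, *Vmn2r1* to *Vmn2r7*. Some basal VSNs also make H2-Mv proteins, non-classical class I molecules of the major histocompatibility complex that pair with beta-2-microglobulin. V2Rs fold poorly in other cells, and the endoplasmic reticulum (ER) of these neurons is known to be rich in chaperones.

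The values that chose the cells are a description. *Omp* had a median of 15 UMIs per cell (3 to 31) and *Gnao1* of 6 (3 to 15). *Gnai2* was at 0 in 81 cells and *Gap43* in 65. The *Vmn2r* sum ran from 17 to 862 UMIs with a median of 138, and the *Vmn1r* sum never passed 4. Just outside the rule lay 12 barcodes that failed only the minimum of *Gnao1*, the nearest with 2 UMIs, against 18 members at exactly 3. The limit on *Cyp2a5* and *Cyp2g1* alone kept out 22 barcodes, the nearest with 5 UMIs. The minimum of the *Vmn2r* sum alone kept out 3 barcodes, the highest of them at 6 UMIs, and the lowest member had 17. The 109 cells found with a minimum of 5 and the 105 with a minimum of 20 differed little in number.

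The label was checked against markers outside the rule. *Calr4*, a relative of calreticulin, had a UMI in 107 of 107 cells (median 25 UMIs), *Sdf2l1*, a partner of the ER chaperone BiP, in 104 and *Robo2*, an axon guidance receptor for Slit proteins, in 81. These 3 genes were proposed as markers with results of these data known and are no independent evidence. *Tfap2e*, the transcription factor of basal VSNs, had a UMI in 90 of 107 cells (84.1%, exact binomial 95% CI 75.8 to 90.5%) and in 2.24% of mature apical VSNs. The 4 apical VSN markers, which include *Gnai2* of the rule, had a UMI in 73 of the 107 cells (68.2%, median 1 UMI) and summed to 84.6 and 117 CPM, against 4254 and 4430 CPM in mature apical VSNs. Of these, *Nrp2* and *Meis2* each had a UMI in 17 cells, and *Pde4a* had 34 UMIs in each library. The 6 olfactory neuron markers had a UMI in 82 cells (76.6%) and summed to 87.8 and 74.8 CPM, against 96.0 and 93.4 CPM in mature apical VSNs. In that list *Gnal*, *Cnga2* and *Stoml3* were at 0, whereas the channel subunits *Cngb1* (42 and 43 UMIs) and *Cnga4* (38 and 31 UMIs) were present. The 4 T cell and the 4 B cell markers were also at 0 in all 107 cells. Macrophage markers had a UMI in 30 cells, with *Cx3cr1* at 0, and summed to 24.9 CPM (UMIs of a gene scaled to the group's total in the usual way) in library 1 and 58.6 CPM in library 2. Gland markers had a UMI in 84 cells (78.5%) and summed to 153 and 107 CPM, with *Obp1a*, *Bpifb4* and *Bpifb9b* at 0. Sustentacular markers had a UMI in 17 cells (at most 20 UMIs in a cell) and basal epithelial markers in 16 (at most 41). Smooth muscle markers reached 223 UMIs in 1 cell and fibroblast markers 122, and these lists had a UMI in 19 and 11 cells. Scrublet, a doublet caller, marked 0 of the 107 cells.

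Family C split most of the cells into 2 classes. A class was given from at least 3 UMIs and the larger sum. *Vmn2r1* led in 38 cells (35.5%, exact binomial 95% CI 26.5 to 45.4%, 17 in library 1 and 21 in library 2). *Vmn2r2* to *Vmn2r7* together led in 57 cells (53.3%, CI 43.4 to 63.0%, 32 and 25 cells), and 12 cells (3 and 9) had no class, 10 with under 3 UMIs and 2 with 3 UMIs of *Vmn2r1* and 3 of the other genes. These intervals, like all others here, cover counting error only. In the *Vmn2r1* class the median was 6 UMIs of *Vmn2r1* and 0 of the other 6 genes, which had a UMI in 8 of the 38 cells. In the *Vmn2r2* to *Vmn2r7* class it was 32 UMIs of those 6 genes (5 to 117) and 0 of *Vmn2r1*, which had a UMI in 11 of 57 cells. All 12 cells without a class held 1 to 3 *Vmn2r1* UMIs. Their median depth was 13394.5 UMIs, against 16100.5 in the *Vmn2r1* class and 19616 in the other.

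**Figure D1:**
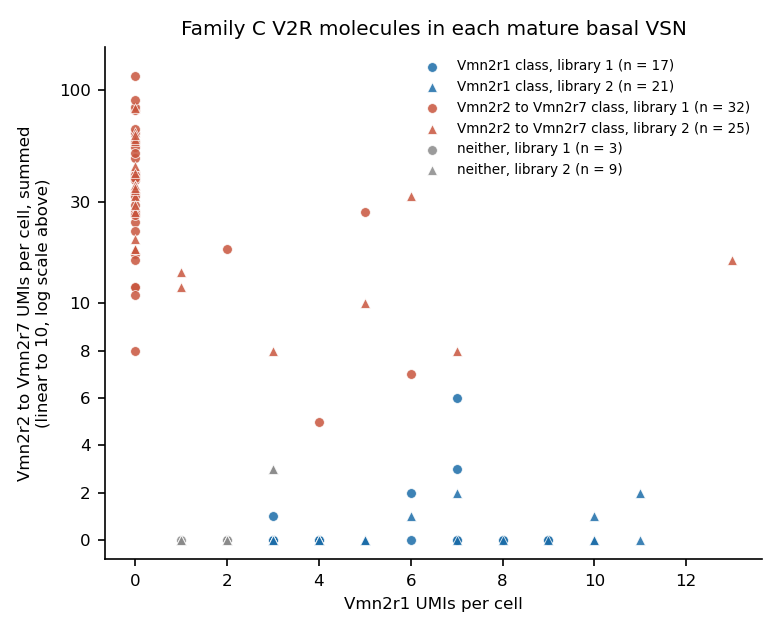
Each point is 1 of the 107 mature basal VSNs, with its *Vmn2r1* UMIs on the x axis and its summed *Vmn2r2* to *Vmn2r7* UMIs on the y axis (linear to 10, logarithmic above); circles are library 1, triangles library 2 and colours the classes. Most cells lie along one axis or the other, and 21 of the 107 hold UMIs of both.

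The low level of *Vmn2r1* makes its class depend on depth. After each cell was thinned to 5000 UMIs, 15.1% of 106 cells were in the *Vmn2r1* class, 49.1% in the other and 35.8% in neither. At least 3 family C UMIs were seen in 9.07% of mature apical VSNs. Macrophages (cells rich in C1q transcripts), which should lack these receptors, held at least 1 in 1.11% of 2153 cells, at median depths of 4070.5 and 4376 UMIs.

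Within the *Vmn2r2* to *Vmn2r7* class most cells held several of the genes. At least 3 UMIs of *Vmn2r7* were seen in 56 of 57 cells, of *Vmn2r6* in 44, of *Vmn2r2* in 39, of *Vmn2r3* in 25, of *Vmn2r4* in 18 and of *Vmn2r5* in 1. The commonest set was *Vmn2r2*, *Vmn2r3*, *Vmn2r4*, *Vmn2r6* and *Vmn2r7* together, in 13 cells, followed by *Vmn2r2*, *Vmn2r6* and *Vmn2r7*, in 12. *Vmn2r1* with *Vmn2r7* alone formed a smaller set of 6 cells, and *Vmn2r1* reached 3 UMIs in 8 of the 57. All 7 genes lie on chromosome 3 of GRCm38 (the assembly also called mm10), from *Vmn2r1* (start 64081547, forward strand) to *Vmn2r7* (end 64844765), with *Vmn2r2* to *Vmn2r7* all on the reverse strand.

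Outside family C, nearly every cell was dominated by 1 receptor. The gene with the most UMIs of the 117 other V2R symbols reached at least 3 UMIs in 104 of 107 cells, with a median of 124 UMIs (7 to 823). The rule's minimum on the *Vmn2r* sum builds much of this share in, above all where family C counts are low. Exactly 1 such receptor reached 3 UMIs in 85 cells (79.4%, exact binomial 95% CI 70.5 to 86.6%), 84.6% in library 1 and 74.5% in library 2. A pair was found in 12 cells, 3 receptors in 5, 4 in 2 and none in 3. The leading receptor held at least 95% of the UMIs outside family C in 88 cells. Counting a receptor from 1 UMI lowered the share with exactly 1 to 68.2%, counting from 5 UMIs gave 83.2%, and thinned cells gave 84.9%. As background, 3.58% of mature apical VSNs held at least 3 UMIs of such a receptor and 4.97% of macrophages at least 1. The apical share is itself limited by the mirror rule, which required more *Vmn1r* than *Vmn2r* UMIs.

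Many genes shared the lead. In all, 60 receptors outside family C had a UMI in a member and 50 led in at least 1 cell, of which 25 led in 1 cell only and 17 in both libraries. *Vmn2r20* (chromosome 6, start 123373513) led in 8 cells, 1 of library 1 and 7 of library 2, which is 7.69% of the cells with a leading receptor. *Vmn2r108* led in 5 cells, and *Vmn2r88*, *Vmn2r30*, *Vmn2r105*, *Vmn2r18* and *Vmn2r124* in 4 each. *Vmn2r42*, *Vmn2r-ps159* and *Vmn2r83* led in 3 each. The cells of *Vmn2r88* held 427 to 474 UMIs of it and those of *Vmn2r30* 321 to 417, whereas those of *Vmn2r108* held 13 to 122. All 4 cells of *Vmn2r30* and all 3 of *Vmn2r42* came from library 1. *Vmn2r-ps159* carries a pseudogene symbol but is annotated as protein coding in GENCODE M21.

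**Figure D2:**
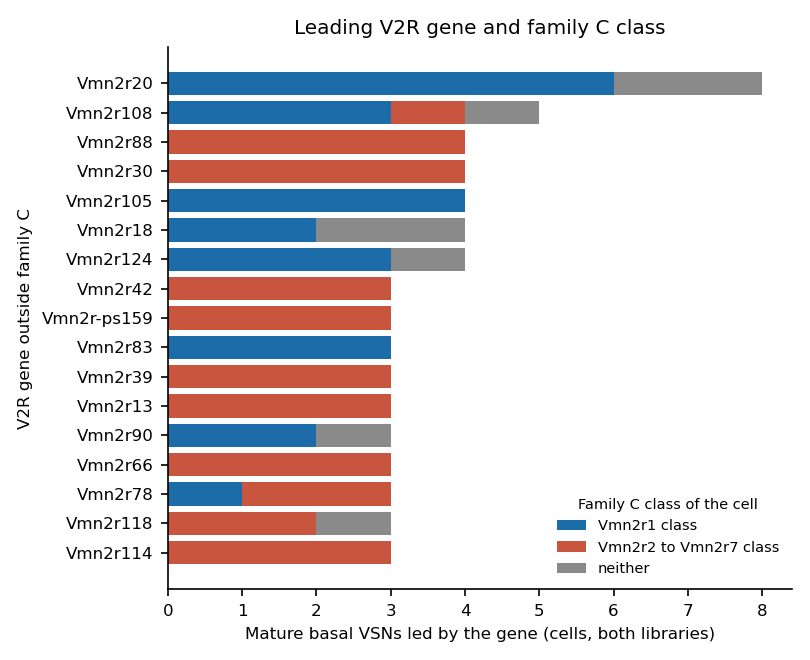
Bars give the number of mature basal VSNs, both libraries together, in which a V2R gene outside family C had the most UMIs (x axis), for the 17 genes that led in at least 3 cells (y axis), coloured by the family C class of the cell. Of these genes, *Vmn2r108* and *Vmn2r78* led in cells of both classes.

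The leading receptor and the family C class went together. Of the 25 genes that led in at least 2 cells with a class, 22 led in 1 class alone, and *Vmn2r108*, *Vmn2r78* and *Vmn2r79* in both. The classes held 38 (*Vmn2r1*) and 54 cells with a leading receptor. A gene with only 2 classed cells, as *Vmn2r18*, *Vmn2r36* or *Vmn2r96*, can easily fall in 1 class without a link. The share expected without a link was not worked out. All 6 cells of *Vmn2r20* with a class, all 4 of *Vmn2r105* and all 3 of *Vmn2r83* were in the *Vmn2r1* class. All cells of *Vmn2r88*, *Vmn2r30*, *Vmn2r42*, *Vmn2r-ps159*, *Vmn2r39*, *Vmn2r13*, *Vmn2r66* and *Vmn2r114* were in the other class. By position, receptors on chromosome 7 led in 35 cells, 6 of the *Vmn2r1* class and 27 of the other. Those on chromosome 17 led in 30 cells, 17 and 8. The 8 classed cells led from chromosome 6 were all of the *Vmn2r1* class, and the 6 led from chromosome 14 were all of the other. Whether cells led by the same gene came from the same animal is not known, and the classes were not compared over mice.

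Some receptors were found in the same cells. Of the 19 cells with more than 1 receptor at 3 UMIs, the 2 highest were on the same chromosome in 14. *Vmn2r20* and *Vmn2r22* shared 9 cells, and *Vmn2r21* joined them in 2, as in 1 cell with 10, 8 and 7 UMIs of *Vmn2r20*, *Vmn2r22* and *Vmn2r21*. *Vmn2r39* and *Vmn2r43* shared 3 cells, with 123 and 58, 125 and 67, and 208 and 57 UMIs. *Vmn2r-ps159*, *Vmn2r122* and *Vmn2r89*, which lie on different chromosomes or scaffolds, shared 4 cells, with *Vmn2r121* as the leading gene in 2 of them. Related transcripts can share reads. Of the 50-base words in the GENCODE transcripts of *Vmn2r43*, 87.7% also occur in *Vmn2r39*, and the share was 79.0% for *Vmn2r21* in *Vmn2r20*, 15.7% for *Vmn2r22* in *Vmn2r20* and 4.62% for *Vmn2r89* in *Vmn2r-ps159*. How the counting divided such reads was not tested. The cell of highest depth (50635 UMIs) held 261 UMIs of *Vmn2r42*, 180 of *Vmn2r97* and 65 of *Vmn2r108*, on chromosomes 7 and 17, and *Vmn2r97* shares 0 words with *Vmn2r42*.

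The family C classes were compared on UMIs summed per library by the quasi-likelihood test of edgeR, with p adjusted after Benjamini and Hochberg. Of 9561 genes, 17 passed an adjusted p of 0.05 (0.178%), 5 higher (0.0523%) and 12 lower (0.126%) in the *Vmn2r1* class. With the library as a block 112 genes passed, 35 higher and 77 lower. The 5 higher genes were the receptors *Vmn2r83* (1146 and 663 CPM in libraries 1 and 2), *Vmn2r96* (410 and 526 CPM), *Vmn2r124*, *Vmn2r18* and *Vmn2r90*, all with 0 UMIs in the other class. *Vmn2r83* was at least 327-fold higher on a floor of 3 counts over the other class (adjusted p = 0.00279), and *Vmn2r96* at least 186-fold (adjusted p = 0.00261). Among the 12 lower genes were the receptors *Vmn2r88*, *Vmn2r-ps159*, *Vmn2r39*, *Vmn2r66* and *Vmn2r43*, with 0 UMIs in the *Vmn2r1* class. *Vmn2r88* was at 681 and 2701 CPM in the *Vmn2r2* to *Vmn2r7* class, at least 310-fold higher there (adjusted p = 0.047). Each of these sums comes from a few cells, 2 for *Vmn2r96* (1 in each library), 3 for *Vmn2r83* and 4 for *Vmn2r88*. All V2R genes enter the rule of the members through their sum. These receptors had UMIs in 1 class only and passed the limit on counts through that class alone. With 1 receptor leading in most cells, a rarely used receptor can stand in 1 class without a link. Their p-values are therefore no support for a link between receptor and class. *Vmn2r20* (22 and 1760 CPM against 0) did not pass (adjusted p = 0.769), nor did *Vmn2r30*, which had 2141 CPM in library 1 and 2.00 CPM in library 2 of the *Vmn2r2* to *Vmn2r7* class (adjusted p = 0.92). Both passed with the library as a block (adjusted p = 2.4e-07 each), which takes up differences between the libraries. Nearly all UMIs of *Vmn2r20* came from library 2 and of *Vmn2r30* from library 1, so each pass rests on a single library.

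Few genes other than receptors and H2-Mv genes separated the classes. *Pou2f1*, which encodes the octamer-binding factor Oct-1, had 5 and 11 UMIs in the *Vmn2r1* class and 177 and 148 UMIs (269 and 296 CPM) in the other, a log2 difference of -3.44 ± 0.26 (SE, adjusted p = 0.00502). *Tenm2*, a teneurin cell adhesion protein, had 4.41 and 5.36 CPM against 68.3 and 92.0 CPM, a ratio of 15.7 with a counting interval of 5.201 to 77.5. *Sncg*, gamma-synuclein, had 1 UMI in the *Vmn2r1* class and 165 and 136 CPM in the other. *Traf3ip3*, an adaptor best known from lymphocytes, also had 1 UMI in the *Vmn2r1* class and 220 and 160 CPM in the other. The libraries of the classes did not overlap for any of these 4 genes. No gene of the ER lists was called. Their median log2 differences were all below the -0.01 of all genes, at -0.21 for 37 chaperones, -0.22 for 19 genes of ER-associated degradation, -0.35 for 36 of translocation and glycosylation (5 of 36 positive) and -0.27 for 39 of transport. With the library as a block the chaperone *Dnajb9* (-1.33, adjusted p = 0.0027) and the stress response genes *Ppp1r15a* (-1.27) and *Nupr1* (-1.73) passed as lower in the *Vmn2r1* class. *Robo2* had 106 and 80.5 CPM in the *Vmn2r1* class and 88.0 and 90.0 CPM in the other, so its groups overlapped, and *Tfap2e* and *Calr4* did not pass either (adjusted p = 0.96 and 0.925).

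H2-Mv molecules marked mainly the *Vmn2r2* to *Vmn2r7* class. The 9 H2-Mv genes are class I genes on chromosome 17. At least 3 UMIs of one of them were seen in 49 of 107 cells (45.8%), in 40 of the 57 cells of the *Vmn2r2* to *Vmn2r7* class (70.2%, exact binomial 95% CI 56.6 to 81.6%), 5 of the 38 of the *Vmn2r1* class (13.2%, CI 4.41 to 28.1%) and 4 of the 12 others. The share in the *Vmn2r2* to *Vmn2r7* class was 87.5% in library 1 and 48% in library 2, and in the *Vmn2r1* class 11.8% and 14.3%, so the order was the same in both libraries and the level in the first class differed. Thinned to 5000 UMIs, the shares were 57.7% and 12.5%. In mature apical VSNs 1.57% of cells held 3 such UMIs, and in macrophages 1.90% held 1.

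The windows before the 6 *H2-M10* genes are alike, and 3 of them are shown because *H2-M10.3* and *H2-M10.6* reached 3 UMIs in the most cells and *H2-M10.4* did so in both classes. They are the 250 bases before the gene's start in RefSeq on GRCm38.p6 (mm10), 5′ to 3′ on the gene's strand. *H2-M10.3* is at chr17:36368418-36368667 (reverse strand), *H2-M10.6* at chr17:36811925-36812174 (forward) and *H2-M10.4* at chr17:36462330-36462579 (reverse). Capitals mark the longest run of letters that all 6 windows hold.
H2-M10.3: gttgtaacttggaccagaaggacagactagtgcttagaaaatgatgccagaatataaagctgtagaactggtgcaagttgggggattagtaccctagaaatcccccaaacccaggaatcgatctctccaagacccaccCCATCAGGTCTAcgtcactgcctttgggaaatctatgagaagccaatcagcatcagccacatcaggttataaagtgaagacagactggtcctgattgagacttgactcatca
H2-M10.6: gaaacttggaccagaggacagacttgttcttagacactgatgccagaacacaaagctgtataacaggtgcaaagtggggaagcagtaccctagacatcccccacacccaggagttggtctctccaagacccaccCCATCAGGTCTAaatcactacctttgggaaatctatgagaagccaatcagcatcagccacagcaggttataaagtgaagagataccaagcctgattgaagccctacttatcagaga
H2-M10.4: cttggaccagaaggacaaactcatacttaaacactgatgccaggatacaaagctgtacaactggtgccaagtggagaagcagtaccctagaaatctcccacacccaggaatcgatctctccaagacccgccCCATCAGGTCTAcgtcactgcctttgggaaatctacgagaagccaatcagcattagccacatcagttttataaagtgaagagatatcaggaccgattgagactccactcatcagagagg

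Over the full windows of 300 bases, the 6 *H2-M10* genes were 73.7 to 90.3% identical in 15 pairs, and 56.2 to 62.8% identical to *H2-M1*, *H2-M9* and *H2-M11*. The shared run CCATCAGGTCTA was found on either strand in 6 of 32851 windows (0.0183%), those of the 6 genes. A shared run is a description and not a binding site. Of the 50-base words of the transcripts, 9.91% of those of *H2-M10.3* occur in *H2-M10.5* and 1.44% of those of *H2-M10.1* in *H2-M10.6*. Both shares are below those of *Vmn2r43* in *Vmn2r39* and of *Vmn2r21* and *Vmn2r22* in *Vmn2r20*. The first is above the 4.62% of *Vmn2r89* in *Vmn2r-ps159*.

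The genes differed in where they were seen. *H2-M10.3* reached 3 UMIs in 39 cells, 36 of them in the *Vmn2r2* to *Vmn2r7* class. *H2-M10.6* did so in 20, *H2-M10.5* in 17 and *H2-M10.1* in 8, all in that class. *H2-M10.4* did not follow it, with 5 cells in the *Vmn2r1* class and 6 in the other. *H2-M1* (4 cells), *H2-M9* (3) and *H2-M11* (2) reached 3 UMIs in library 2 only, never in the *Vmn2r2* to *Vmn2r7* class, and *H2-M9* reached 157 UMIs in 1 cell. *H2-M10.2* never passed 1 UMI, in 13 cells of the *Vmn2r2* to *Vmn2r7* class. In combination, *H2-M10.3* stood alone in 15 cells, *H2-M10.1*, *H2-M10.3*, *H2-M10.5* and *H2-M10.6* were together in 6, and *H2-M10.4* stood alone in 5.

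**Figure D3:**
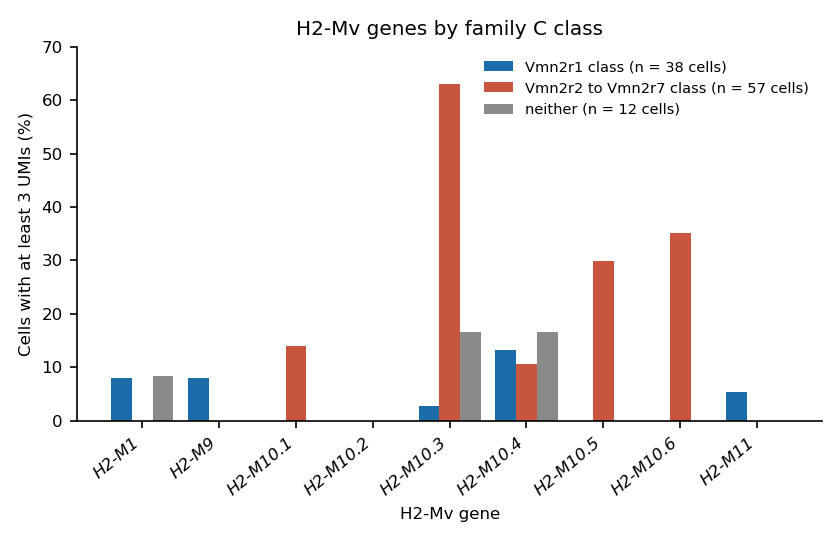
Bars give the percentage of cells with at least 3 UMIs (y axis) of each H2-Mv gene (x axis) in the *Vmn2r1* class (38 cells), the *Vmn2r2* to *Vmn2r7* class (57 cells) and the cells in neither (12 cells), with both libraries pooled and no error bars. *H2-M10.3*, *H2-M10.5*, *H2-M10.6* and *H2-M10.1* stand almost wholly in the *Vmn2r2* to *Vmn2r7* class, and *H2-M10.4* in all 3 groups.

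In the test between classes, *H2-M10.1*, *H2-M10.5* and *H2-M10.6* were lower in the *Vmn2r1* class, 3 of 8 H2-Mv genes tested beside 0.126% of all genes. *H2-M10.5* had 637 and 536 CPM in the *Vmn2r2* to *Vmn2r7* class and 1 UMI in the other (adjusted p = 0.00279), and *H2-M10.6* had 404 and 254 CPM against 0 UMIs, at least 67.8-fold (adjusted p = 0.00955). The list's median log2 difference was -5.15, and -3.05 with genes at 0 set to their bound, beside -0.01 over all genes. *H2-M10.3* had 0 and 8 UMIs against 533 and 246 CPM and did not pass (adjusted p = 0.121), but did with the library as a block (adjusted p = 0.000133). With the block *H2-M9* (adjusted p = 7.67e-07) and *H2-M1* (adjusted p = 0.0107) also passed, both higher in the *Vmn2r1* class, where all their UMIs came from library 2. *B2m*, the common light chain, had 560 and 606 CPM in the *Vmn2r1* class and 569 and 604 CPM in the other, so the groups overlapped (log2 difference -0.05 ± 0.15, SE).

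H2-Mv counts also differed between leading receptors, which themselves went with the class. Every cell led by *Vmn2r88*, *Vmn2r30*, *Vmn2r42*, *Vmn2r-ps159*, *Vmn2r39*, *Vmn2r66*, *Vmn2r114* or *Vmn2r13* held at least 3 H2-Mv UMIs. No cell led by *Vmn2r18*, *Vmn2r78*, *Vmn2r83*, *Vmn2r90*, *Vmn2r105*, *Vmn2r108*, *Vmn2r118* or *Vmn2r124* did. The genes of the first list led only in the *Vmn2r2* to *Vmn2r7* class. Of the second list only *Vmn2r78* (2 cells), *Vmn2r118* (2) and *Vmn2r108* (1) led in that class, so receptor and class largely cannot be told apart. Each gene led in 3 to 5 cells. Those of *Vmn2r30*, *Vmn2r42* and *Vmn2r13* were all in library 1 and those of *Vmn2r118* in library 2. The amounts differed too, with 171 to 308 H2-Mv UMIs in the 3 cells of *Vmn2r-ps159* and 5 to 7 in the 3 cells of *Vmn2r13*. *Vmn2r20* was mixed, with 3 of 8 cells. Of the 49 cells with H2-Mv, 30 held a *Traf3ip3* UMI and 13 a *Sncg* UMI, against 4 and 2 of the other 58. Of these, 29 of the 30 and all 13 were in the *Vmn2r2* to *Vmn2r7* class. The 5 cells with H2-Mv in the *Vmn2r1* class held 0 UMIs of either gene. Within the *Vmn2r2* to *Vmn2r7* class the difference remained when the libraries were pooled. There, 29 of 40 cells with H2-Mv held a *Traf3ip3* UMI and 13 a *Sncg* UMI, against 3 and 1 of the 17 without. The 40 cells were 28 of library 1 and 12 of library 2, and the 17 were 4 and 13. The contrast thus mixes H2-Mv with library and was not tested within a library. Only 1 cell of the 107 held a UMI of a formyl peptide receptor, the other small receptor family of VSNs (0.935%, exact binomial 95% CI 0.0237 to 5.10%). The rule asks for *Vmn2r* UMIs, so a cell with such a receptor in place of a V2R could not be a member.

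Mature basal VSNs were then compared with mature apical VSNs, whose receptors are V1Rs. Of 13940 genes in the same edgeR test, 1008 passed (7.23%), 591 higher (4.24%) and 417 lower (2.99%) in the basal cells. With the library as a block 2096 passed, 1138 higher and 958 lower, and with every cell thinned to 5000 UMIs 450 passed. Genes of the cell rules are left out of these counts. Because both groups were drawn on related genes, some difference is built into them. Macrophage markers summed to 102 and 167 CPM in apical cells against 24.9 and 58.6 CPM in basal cells, and the macrophage gene *C1qb* was among the genes called lower. So was the neutrophil gene *S100a8*, with 0 and 3 UMIs in basal and 101 and 75 in apical cells (ratio 8.66, counting interval 2.91 to 42.4). Its log2 difference was -1.78 without library 1 and -4.83 without library 2. Gland markers stood at 327 and 3038 CPM in apical against 153 and 107 CPM in basal cells, with 17289 UMIs in 1 apical cell. The part of these cell types in the results was not tested.

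The ER chaperones held the largest number of genes called higher of any list, but not the largest share. Their share was 53.7%, against 75% of the H2-Mv genes, 52.8% of the translocation and glycosylation genes and 4.24% of all genes. Of 41 ER chaperones and folding enzymes, 22 were higher in basal cells and 2 lower, with a median log2 difference of 0.85 beside -0.08 over all genes. *Sdf2l1* had 830 and 792 CPM in basal and 108 and 136 CPM in apical cells, a log2 difference of 2.81 ± 0.13 (SE, adjusted p = 0.00011). *Dnajc3*, a co-chaperone that also restrains the kinase PERK, had 692 and 614 CPM against 127 and 125 CPM (2.45 ± 0.12, adjusted p = 0.00011). *Manf*, a secreted ER protein with neurotrophic activity, had 1970 and 1668 CPM against 438 and 443 CPM. The basal libraries lay above both apical libraries for all 3 genes. *Sdf2l1* and *Calr4* were proposed as markers with results of these data known. Their calls, here and below, are no independent evidence. *Hspa5*, which encodes BiP, the main Hsp70 of the ER, had 1627 and 1553 CPM against 583 and 535 CPM (1.58 ± 0.10, adjusted p = 0.000282). *Creld2* (log2 difference 2.79), *Pdia6* (1.79), *Calr4* (1.65), *Fkbp2* (1.62), *Hsp90b1* (1.17) and *Pdia3* (1.12) were also higher. *Canx*, which encodes the membrane-bound lectin chaperone calnexin, had 237 and 211 CPM against 168 and 169 CPM and did not pass (adjusted p = 0.061, and 0.00441 with the library as a block).

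The calreticulin relatives went opposite ways. *Calr4* had 1617 and 1376 CPM in basal cells and 532 and 476 CPM in apical cells (adjusted p = 0.000692). *Calr*, calreticulin itself, had 41.2 and 51.6 CPM in basal cells and 149 and 154 CPM in apical cells, a log2 difference of -1.63 ± 0.14 (SE, adjusted p = 0.00122). The other gene lower in basal cells was *Clgn*, the calnexin relative calmegin, at 195 and 187 CPM against 381 and 396 CPM (-0.95 ± 0.10, adjusted p = 0.00308). In each case the libraries of the groups did not overlap.

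**Figure D4:**
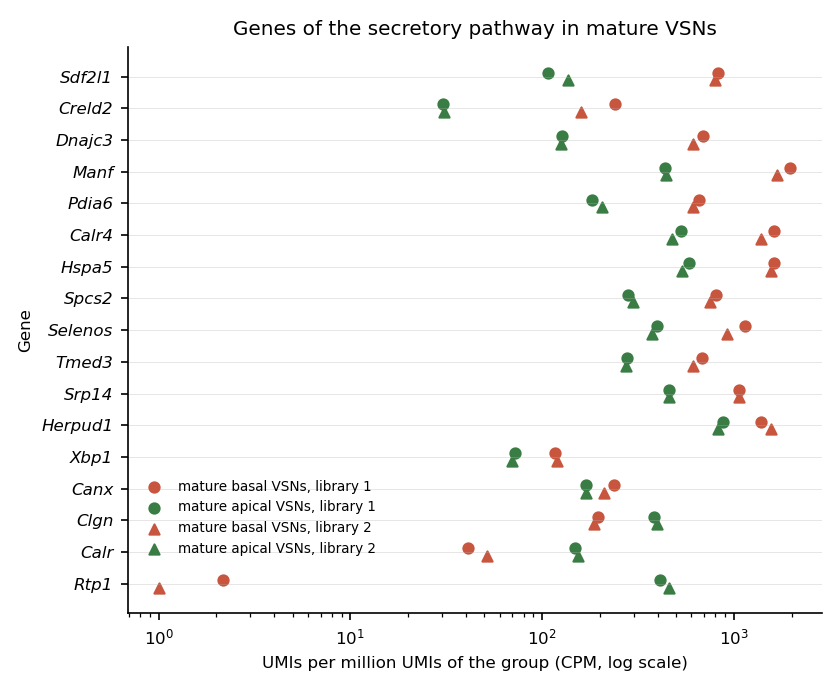
Each symbol is the level of a gene (y axis) in CPM (x axis, log scale) in mature basal VSNs (red) and mature apical VSNs (green), circles for library 1 and triangles for library 2. Most genes are higher in basal cells, while *Calr*, *Clgn* and *Rtp1* are higher in apical cells, and *Canx* did not pass the test.

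Other steps of the secretory pathway also held more higher than lower genes. Of 36 genes for translocation into the ER and for glycosylation, 19 were higher (52.8%) and 0 lower (median log2 difference 0.60). Of all genes, 4.24% were higher and 2.99% lower. The 19 included *Spcs2* of the signal peptidase (810 and 753 CPM against 281 and 299 CPM, 1.51 ± 0.10, SE, adjusted p = 0.000423) and *Srp14* of the signal recognition particle (1.29). Of 20 genes of ER-associated degradation, 7 were higher (35%) and 0 lower (median 0.32), among them *Selenos* (1137 and 916 CPM against 396 and 373 CPM, 1.49) and *Edem2*, which trims mannose from misfolded glycoproteins (1.32). Of 41 genes of transport between the ER and Golgi, 11 were higher (26.8%), such as *Tmed3* (1.31) and *Surf4* (1.13), and 3 were lower (7.32%, median 0.47). The 3 lower genes were *Rtp1*, *Rtp2* and *Rtp4*, of the receptor-transporting proteins that bring odorant receptors to the cell surface. *Rtp1* had 2 UMIs and 1 UMI in the basal libraries against 413 and 457 CPM in the apical ones, a ratio of 276 with a counting interval of 94.5 to 1341.

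Of 18 regulators of the unfolded protein response tested, 3 were higher (16.7%, beside 4.24% of all genes) and 0 lower, with a median log2 difference of 0.34. *Xbp1*, the factor made active by splicing in ER stress, had 117 and 119 CPM against 71.9 and 69.5 CPM (0.82 ± 0.12, SE, adjusted p = 0.0102). *Creb3* (1.07) and *Atf6b* (0.89) were the others. The sensors *Ern1* (adjusted p = 0.39) and *Atf6* (0.937) and the factor *Atf4* (0.784) did not pass. Cytosolic heat shock genes gave 0 higher and 1 lower of 11 (9.09%), and immediate early genes 0 higher and 3 lower of 20 (15%). Of all genes, 2.99% were lower.

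Several promoters of these chaperones hold the ER stress element, to which ATF6 and XBP1 bind with NF-Y, spelled CCAAT and CCACG with 9 bases of any kind between them. A search of both strands of the 300-base RefSeq windows (250 before and 50 after the start) found it in 0.119% of 32851 windows. Of the 32 ER chaperones with a window, 8 held it (25%): *Calr*, *Calr4*, *Canx*, *Creld2*, *Dnajc3*, *Hsp90b1*, *Hspa5* and *Pdia6*. Of these, 6 were higher in basal cells, *Calr* was lower and *Canx* was not called. Of all 41 chaperones tested, with or without a window, 22 were higher (53.7%), and whether the element goes with the difference was not tested. A second form, ATTGG and CCACG with 1 base between them, was in 0.0365% of windows and in that of *Dnajb11* from this list. The windows of *Hspa5* and *Dnajc3*, which were higher, and of the opposed pair *Calr4* and *Calr* are shown to 250 bases before the start, 5′ to 3′ on the gene's strand, with the element in capitals. They lie at chr2:34771840-34772089 (forward), chr14:118937682-118937931 (forward), chr4:109218163-109218412 (forward) and chr8:84846932-84847181 (reverse) of GRCm38.p6, in the order *Hspa5*, *Dnajc3*, *Calr4* and *Calr*.
Hspa5: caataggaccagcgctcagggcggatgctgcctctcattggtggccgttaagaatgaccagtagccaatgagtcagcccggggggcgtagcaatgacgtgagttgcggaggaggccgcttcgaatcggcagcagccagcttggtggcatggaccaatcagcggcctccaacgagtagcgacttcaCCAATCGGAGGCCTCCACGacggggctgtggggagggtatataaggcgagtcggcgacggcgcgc
Calr4: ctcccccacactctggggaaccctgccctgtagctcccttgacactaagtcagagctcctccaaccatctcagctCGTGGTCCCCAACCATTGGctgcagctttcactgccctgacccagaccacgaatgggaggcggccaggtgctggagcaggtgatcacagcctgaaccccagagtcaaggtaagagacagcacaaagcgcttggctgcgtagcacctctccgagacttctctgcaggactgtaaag
Dnajc3: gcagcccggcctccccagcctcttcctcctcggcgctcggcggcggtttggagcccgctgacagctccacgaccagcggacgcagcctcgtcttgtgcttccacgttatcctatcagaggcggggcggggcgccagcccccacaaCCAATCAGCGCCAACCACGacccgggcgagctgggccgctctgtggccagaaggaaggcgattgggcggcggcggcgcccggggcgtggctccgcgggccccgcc
Calr: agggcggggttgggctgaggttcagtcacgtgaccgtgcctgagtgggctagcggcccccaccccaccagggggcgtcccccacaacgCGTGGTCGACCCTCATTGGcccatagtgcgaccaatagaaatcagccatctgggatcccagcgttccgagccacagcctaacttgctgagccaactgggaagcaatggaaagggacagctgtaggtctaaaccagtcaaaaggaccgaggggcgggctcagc

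In *Calr4* and *Calr* the element reads on the opposite strand, and it ends 46 bases before the start in *Hspa5*, 86 in *Dnajc3*, 156 in *Calr4* and 143 in *Calr*. In the opposed pair the elements share the 5 bases at each end, which the search fixed, and not all of the 9 between them. A match is a description, and whether a factor binds there was not tested.

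Signalling parts outside the rule differed gene by gene. Of 45 signal transduction genes, 3 were higher (6.67%) and 6 lower (13.3%) in basal cells, beside 4.24% and 2.99% of all genes. Their median log2 difference was -0.23. G protein gamma subunits were split. *Gng8* had 2003 and 1690 CPM in basal cells against 1280 and 1251 CPM (0.62 ± 0.11, SE, adjusted p = 0.0195). *Gng13* had 29.3 and 61.7 CPM against 1387 and 1304 CPM (-4.81 ± 0.28, adjusted p = 0.000244), and *Gng2* 2.17 and 25.3 CPM against 1396 and 1448 CPM (-6.59 ± 0.56, adjusted p = 0.00108). The beta subunit *Gnb1* (2565 and 2790 CPM against 2824 and 3316 CPM) did not pass (adjusted p = 0.455). *Pde2a*, a phosphodiesterase stimulated by cGMP, was higher (22.8 and 24.3 CPM against 2.48 and 1.97 CPM) and *Pde4a*, a marker of apical VSNs, lower (36.9 and 34.4 CPM against 71.0 and 85.7 CPM). Of 49 ion channel genes 3 were higher, such as the calcium channel subunit *Cacnb4* (2.07), and 3 lower, such as the leak potassium channel *Kcnk3* (-1.36). These shares of 6.12% each are near those of all genes. The calcium-activated chloride channels *Ano1* (adjusted p = 0.125) and *Ano2* (0.287) did not pass.

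Axon guidance and adhesion genes were lower more often than higher. Of 64 genes, 4 were higher (6.25%) and 11 lower (17.2%) in basal cells, beside 4.24% and 2.99% of all genes. Their median log2 difference was -0.26. *Robo2* had 90.0 and 87.9 CPM against 2.19 and 2.79 CPM (5.22 ± 0.21, SE, adjusted p = 4.77e-05). *Nrp2*, the semaphorin receptor of apical axons, had 10.8 and 13.1 CPM against 243 and 264 CPM (-4.32 ± 0.16, adjusted p = 4.77e-05). Neither gene's groups overlapped. *Robo2* was proposed as a marker with results of these data known, so its tests here and below are no independent evidence. The ligands *Efnb3* (9.76 and 7.08 CPM against 0.292 and 0.491 CPM) and *Sema3a* (1.27) were higher, and the protocadherin *Pcdh7* (-4.67), the adhesion molecule *Ncam2* (-4.36) and *Sema7a* (-2.73) lower. *Kirrel2* and *Kirrel3*, adhesion proteins that sort vomeronasal axons, did not pass (adjusted p = 0.0655 and 0.109, and 0.00191 and 0.00931 with the block). Of 30 synaptic vesicle genes 5 were higher (16.7%), among them *Rab3c* (3.05) and *Slc17a6*, the vesicular glutamate transporter VGLUT2 (0.72), and 2 lower (6.67%).

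Other named genes had large differences. Of 55 transcription factors, 3 were higher (5.45%) and 5 lower (9.09%) in basal cells, beside 4.24% and 2.99% of all genes. *Batf3* had 41.2 and 41.4 CPM against 1.17 and 1.15 CPM (5.19 ± 0.27, SE, adjusted p = 0.000159), and *Pou2f1* had 201 and 162 CPM against 39.3 and 36.5 CPM (2.33). *Meis2* (-4.67), *Nfix* (-2.41), *Meis1* (-2.01) and *Insm1* (-1.92) were lower. *Cnpy1*, of the canopy family of ER proteins, had 461 and 524 UMIs (500 and 530 CPM) against 71 and 41 UMIs in the larger apical group (5.97 ± 0.22, adjusted p = 4.77e-05), with a UMI in all 107 basal cells and in 4.93% of apical cells. *Tafa1*, a secreted peptide, was higher as well (101 and 98.0 CPM against 3.21 and 3.93 CPM). *Prph*, the intermediate filament peripherin, was counted 1 time in basal cells against 338 and 322 CPM in apical cells, a ratio of 631 with a counting interval of 113 to 24945. *Nsg1*, a neuronal endosomal protein, had 75.9 and 96.0 CPM against 1730 and 1900 CPM (-4.32). Of 8 H2-Mv genes tested 6 were higher in basal cells (75%). Of 13 class I and loading genes only *B2m* was (7.69%), at 566 and 606 CPM against 157 and 151 CPM (2.00 ± 0.10, adjusted p = 0.000145).

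Maturation within the basal line was read from the 83 immature basal VSNs (median 10246 and 9062.5 UMIs). This comparison shares the mature basal sums with the one above. The immature cells were chosen without limits on *Gnao1* or *Vmn2r* UMIs. The 4 apical VSN markers had a UMI in 76 of the 83 cells. They summed to 459 and 646 CPM, against 84.6 and 117 CPM in mature basal cells. How far the unlike rules shaped the differences was not tested. Of 10753 genes, 1822 passed (16.9%), 941 higher (8.75%) and 881 lower (8.19%) in mature cells in the same edgeR test. DESeq2 called 1035. Macrophage markers summed to 331 and 536 CPM in the immature cells against 24.9 and 58.6 CPM, and *C1qa*, *C1qb* and *C1qc* were among the genes called lower. *Acta2* and *Tagln* of smooth muscle were called higher. *Acta2* was at 51.0 and 183 CPM against 7.15 and 30.1 CPM (log2 difference 2.88), and with a mitochondrial limit of 5% the difference was -0.48 (adjusted p = 0.7). *Krt14* of basal epithelium was also called higher (44 and 35 UMIs against 0 and 1, ratio 35.5 with a counting interval of 6.18 to 1418). Its fitted log2 difference was 4.95, and its differences of log2 CPM were 4.14 in library 1 and 2.65 in library 2. *Lcn3* of glands was called lower (102 and 83.9 CPM against 159 and 208 CPM). *Cngb1* and *Cnga4* of the olfactory list were called higher. The part of these cell types in the results was not tested.

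Of 12 immature neuron markers tested, 11 fell (91.7%, beside 8.19% of all genes), with a median log2 difference of -3.13 beside 0.06 over all genes. *Gap43*, which the rule used, is left out. *Stmn2*, a microtubule regulator of growing axons, went from 5547 and 5287 CPM to 175 and 171 CPM (-4.95 ± 0.14, SE, adjusted p = 7.01e-06). *Sox11* went from 685 and 1252 CPM to 8.68 and 7.08 CPM (-6.87). The intermediate filaments *Prph* (406 and 459 CPM to 1 UMI) and *Ina* (311 and 298 CPM to 3.25 and 4.04 CPM) also fell. Of 47 transcription factors 14 fell (29.8%), among them *Insm1* (-4.38), *Lhx2* (-1.76), *Bcl11b* (-1.66), *Dlx5* (-1.54) and *Ebf1* (-1.14). The share that rose was 6.38%, beside 8.75% of all genes. The 3 factors that rose were *Nr2f6*, *Nfatc1* and *Pou2f1*, the last from 62.6 and 53.6 CPM to 201 and 162 CPM (1.64 ± 0.23, adjusted p = 0.00377).

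Some H2-Mv, loading and secretory genes rose. Of all genes, 8.75% rose and 8.19% fell. Of 8 H2-Mv genes 5 rose (62.5%), as *H2-M10.4* from 10.7 and 3.35 CPM to 272 and 376 CPM (5.32 ± 0.38, SE, adjusted p = 0.000224). *B2m* rose from 136 and 181 CPM to 566 and 606 CPM (1.93), and *Tapbp*, the loading protein tapasin, from 23.2 and 33.5 CPM to 146 and 166 CPM (2.52). Of 19 genes of ER-associated degradation 10 rose (52.6%), such as *Selenos* (2.69) and *Herpud1* (1.78), and 1 fell (5.26%, median 1.16). Of 36 translocation and glycosylation genes 14 rose (38.9%) and 0 fell (median 0.60), and of 39 transport genes 5 rose (12.8%) and 0 fell (0.58). Chaperones were more mixed, with 12 rising and 4 falling of 38 (median 0.70). *Dnajc3* rose from 172 and 87.1 CPM to 692 and 614 CPM (2.30). *Hspa5* had 1455 and 750 CPM in immature and 1627 and 1553 CPM in mature cells and did not pass (adjusted p = 0.242), and *Manf* (adjusted p = 0.12) and *Hsp90b1* (0.105) did not either. With the library as a block these 3 passed as higher (adjusted p = 0.00764, 0.00517 and 0.000521). *Pdia4* fell, from 96.5 and 46.9 CPM to 8.68 and 13.1 CPM, by 2.74 ± 0.44 (SE, adjusted p = 0.00617), and by 1.58 without library 1. *Calr* fell by 1.35 on the log2 scale (adjusted p = 0.0288), and by 0.61 without library 1.

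Parts of the mature neuron's signalling and synapse rose too. Of 39 signal transduction genes 11 rose (28.2%) and 5 fell (12.8%), beside 8.75% and 8.19% of all genes. Among those that rose were *Gnb1*, from 1153 and 1222 CPM to 2565 and 2790 CPM (1.20), *Gng8* (1.13) and *Gng3* (2.03). *Gnas* (-1.74) and *Gng2* (-3.92) were among those that fell. Of 38 ion channels 8 rose (21.1%) and 3 fell (7.89%, near the share of all genes). *Ano1* rose from 7.15 and 6.70 CPM to 36.9 and 39.4 CPM (2.43 ± 0.40, SE, adjusted p = 0.00679) and *Ano2* from 19.7 and 23.4 CPM to 65.1 and 62.7 CPM (1.60). Of 28 synaptic vesicle genes 8 rose (28.6%) and 3 fell (10.7%), with *Syp* at 2.19 and *Slc17a6* at 2.00. *Pvalb*, the calcium buffer parvalbumin, had 2 UMIs in immature cells and 314 and 294 CPM in mature cells. *Nap1l5* was at 0 UMIs in immature cells and at 125 and 139 CPM in mature cells, at least 37.9-fold higher.

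Whether these changes differed from those of apical VSNs was tested as an interaction over all 4 groups. Of 14666 genes, 40 passed (0.273%), 17 with the higher change in the basal line (0.116%) and 23 with the lower (0.157%), in the same edgeR test. With the library as a block 232 passed, 95 and 137. Here a positive value means that the mature over immature log2 difference was higher in basal than in apical VSNs. Both immature groups were drawn without limits on G proteins or receptors, unlike the mature ones. *Robo2* had 89.4 and 144 CPM in immature and 90.0 and 87.9 CPM in mature basal cells (adjusted p = 0.41 between them) and went in apical cells from 54.2 and 63.3 CPM to 2.19 and 2.79 CPM, an interaction of 4.17 ± 0.33 (SE, adjusted p = 0.000387). *Chst1*, a sulfotransferase of glycans, had 73.3 and 67.0 CPM immature and 88.9 and 86.9 CPM mature in basal cells and went from 82.4 and 90.3 CPM to 71 and 95 UMIs, of which the latter is 15.6 CPM, in apical cells (3.02). *Galnt18*, which starts O-glycosylation, went from 75.1 and 73.7 CPM to 184 and 185 CPM in basal cells and from 63.6 and 71.8 CPM to 27.6 and 22.4 CPM in apical cells (2.70). *Cnpy1* (3.14) and *Tafa1* (3.08) also passed.

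Other genes had the opposite sign. *Nrp2* went from 311 and 415 CPM to 10.8 and 13.1 CPM in basal cells and from 601 and 559 CPM to 243 and 264 CPM in apical cells (-3.73 ± 0.24, SE, adjusted p = 0.000112). *Nsg1* went from 350 and 502 CPM to 75.9 and 96.0 CPM in basal cells and from 642 and 628 CPM to 1730 and 1900 CPM in apical cells (-3.83). *Gng2* went from 250 and 177 CPM to 2.17 and 25.3 CPM in basal cells and from 857 and 784 CPM to 1396 and 1448 CPM in apical cells (-4.78). *Epha5*, an ephrin receptor, went from 145 and 117 CPM to 284 and 293 CPM in basal cells and from 84.7 and 58.3 CPM to 485 and 480 CPM in apical cells (-1.66).

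**Figure D5:**
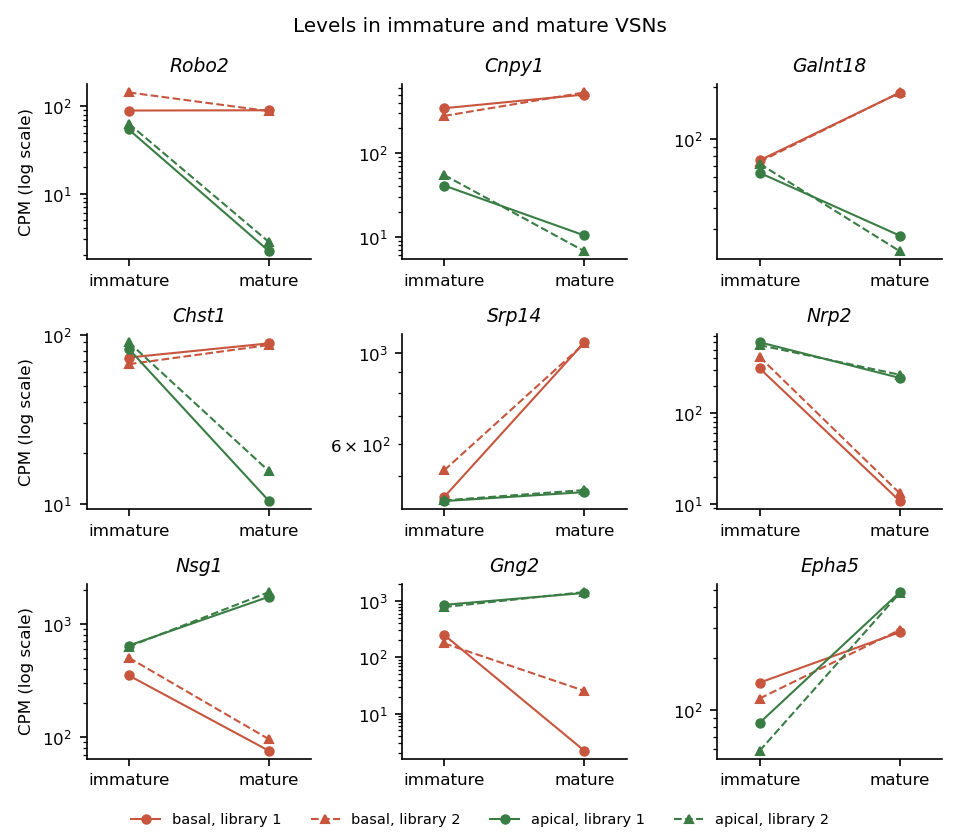
Each panel gives the level of 1 gene in CPM (y axis, log scale, ranges differ between panels) in immature and mature VSNs (x axis), red for basal and green for apical cells, circles and solid lines for library 1 and triangles and dashed lines for library 2. Mature apical cells lie lowest for *Robo2* and *Chst1*, and mature basal cells lie lowest for *Nrp2*, *Nsg1* and *Gng2*.

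The secretory lists hardly appear in this test. None of 41 chaperones passed, with 26 of 41 positive and a median interaction of 0.16 beside 0.00 over all genes. The same held for 20 genes of ER-associated degradation, 42 of transport and 18 regulators of the unfolded protein response, none of which passed. Of 36 translocation and glycosylation genes only *Srp14* passed, from 443 and 516 CPM to 1065 and 1058 CPM in basal cells against 433 and 435 CPM to 456 and 461 CPM in apical cells (1.05 ± 0.14, SE, adjusted p = 0.0163). *Sdf2l1* gave 0.50 ± 0.34 (SE, adjusted p = 0.691) and *Calr4* -0.59 ± 0.34 (adjusted p = 0.625). Immature basal VSNs had 449 and 238 CPM of *Sdf2l1* against 76.9 and 76.1 CPM in immature apical VSNs. A p that misses the threshold does not show that the lines change alike.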

How the data were processed

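Droplet single-cell RNA-seq of frozen and thawed VNO cells was deposited as UMI counts per gene and barcode. According to the submitters' processing notes, the authors used bcl2fastq, Cell Ranger 4 and Seurat 3.2.3 with mm10 to make the deposited counts, which are not normalised. Whether depth was equalised when the libraries were combined is not stated. The library totals were 108005626 and 95442231 UMIs.

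The members and the gene lists were chosen with earlier results of these data known. UMIs were summed per library and group (922118 and 989300 for mature basal VSNs) and tested with edgeR 4.0.16 in R 4.3.3 (quasi-likelihood test, TMM scaling, genes with at least 10 UMIs in all, Benjamini-Hochberg adjustment over all genes tested), with 2 libraries per group. The interaction was fitted over all 4 groups. DESeq2 1.42.0 served as an alternative, beside another scaling, other filters, a replicate block, a mitochondrial limit of 5%, thinning to 5000 UMIs, leaving out doublets and leaving out a library. A gene's value without a library is the difference of log2 CPM in the other library, with a prior count of 2, and is not a fit. At low counts it is smaller than the fitted value for that reason alone. Cells were handled with numpy 2.4.6, scipy 1.17.1, pandas 2.3.3 and scanpy 1.11.5, and figures drawn with matplotlib 3.10.9. The test scripts were tested on simulated data.

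A replicate number stands for a library, so it pairs the groups. Across genes, which are not independent, their deviations correlated at 0.0376 (mature basal with mature apical), 0.00468 (with immature basal) and 0.0648 (between classes), and at -0.0203 to 0.0831 among the 4 groups. The libraries of a group differed by more than sampling noise (chi-square per degree of freedom 2.11 to 9.50). Scrublet found no doublets in library 1 at its own threshold, so that of library 2 was used for both and marked 186 and 180 barcodes (1.86% and 2.07%), which were kept.

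Exact binomial intervals (Clopper-Pearson, 95%) cover counting error only. A gene with no UMI in a group was set to 3 counts over that group to give a bound. Genes used by a cell rule were left out of the tests between the groups that the rule separates. Beside list members, the 8 genes with the largest difference in each direction were eligible to be named (same sign in both libraries, at least 50 CPM in both libraries of the higher group, or of at least 1 of the 4 groups for the interaction). Members whose role is described were also named, as were the 10 receptors that led in the most cells. RefSeq windows on GRCm38.p6 and GENCODE M21 positions and transcripts were used for sequence.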

Additional observations from a re-analysis of the deposited data

Results flagged for a closer look

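For 21 of the genes named, the change with maturation differed between basal and apical VSNs by the interaction test of edgeR. The values are the mature over immature log2 difference of basal cells minus that of apical cells.

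Positive values were found for *Robo2* (4.17), *Cnpy1* (3.14), *Tafa1* (3.08), *Chst1* (3.02), *Tmem158* (2.84), *Galnt18* (2.70), *Dpysl3* (2.36), *Ift172* (2.28), *Pou2f1* (1.93) and *Srp14* (1.05). Negative values were found for *Prph* (-8.30), *Prrxl1* (-8.07), *Gng2* (-4.78), *Nsg1* (-3.83), *Nrp2* (-3.73), *Cd200* (-3.32), *Zdhhc3* (-2.87), *Id4* (-2.86), *Dcx* (-2.51), *Epha5* (-1.66) and *Stmn2* (-0.92). *Prrxl1* had 0 UMIs in mature basal VSNs, so its fitted value depends on the prior count and is no bound. Its difference of log2 CPM, which is not a fitted value, was -5.01 without library 1 and -4.70 without library 2. *Stmn2* went from 5547 and 5287 CPM to 175 and 171 CPM in basal cells and from 5847 and 5239 CPM to 338 and 317 CPM in apical cells.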

How the results depend on the processing

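With the library as a replicate block the genes called rose from 1008 to 2096 between mature basal and apical VSNs, from 40 to 232 in the interaction and from 17 to 112 between family C classes, and all genes called without the block were called with it. Of the 520 values of named genes the block brought 81 past the threshold and changed no other call. DESeq2 gave 1035 genes between mature and immature basal VSNs, 140 in the interaction and 34 between classes. With no filter on low counts the interaction gave 379 genes and the classes 201. Between mature basal and apical VSNs, cells thinned to 5000 UMIs gave 450 genes, and leaving out cells with a UMI of the other line's G protein, an alternative chosen after seeing the data, gave 1602. The causes were not tested, beyond the smaller counts that thinning leaves. Thinned cells gave 15.1% in the *Vmn2r1* class and 35.8% in neither class, and counting a receptor from 1 UMI gave 68.2% of cells with exactly 1. *Acta2* between mature and immature basal VSNs reversed from 2.88 to -0.48 with a mitochondrial limit of 5% (adjusted p = 0.7), and the cause was not tested. The number of cells was 81 with that limit. Leaving out either library in turn gave 32.7 to 38.2% of cells in the *Vmn2r1* class, 45.5 to 61.5% in the *Vmn2r2* to *Vmn2r7* class, 5.77 to 16.4% in neither, 74.5 to 84.6% with exactly 1 receptor, 96.4 to 98.1% with a leading receptor, a median leading share of 100 to 100%, H2-Mv in 11.8 to 14.3% and 48 to 87.5% of the classes and a formyl peptide receptor in 0 to 1.92%. Counts of genes could not be fitted without a library, since no residual degrees of freedom remain. DESeq2 moved 32 named values past the threshold and 19 below it, and thinning 13 and 39. With 2 libraries of unknown mice, a gene that did not pass may still differ.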
